A study of Mus musculus with 12 samples.

Results

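Wild-type (WT) mouse germinal vesicle (GV) oocytes, the stage before meiotic maturation, were compared with WT embryos at the 2-cell stage, which gives the net change in polyadenylated RNA from the oocyte to the embryo after its first cleavage. The comparison was defined by the labels alone: the 2 WT GV libraries and the 2 WT 2-cell libraries, 4 of the 12 libraries in the study, over all 11298 complete gene rows. The other libraries, 2 in each group, were WT 1-cell embryos and GV oocytes, 1-cell embryos and 2-cell embryos labelled Pabpn1l knockout (KO). All mice had the C57BL/6 background, each Smart-seq2 library held 10 oocytes or embryos, GV oocytes were taken directly from mice, and embryos had been grown in KSOM, an embryo culture medium. Stage and culture therefore cannot be told apart. Whether the pair of libraries in a group came from different animals is not in the labels, so the p-values measure only the spread between these libraries, which may be technical. The labels also do not say whether KO describes the mother, the embryo or both. By definition FPKM is fragments scaled to transcript length and to all mapped fragments of the library. The 2-cell columns had far lower sums, given below, so their values may not keep that scale. H1foo, the oocyte linker histone, stood at 3654 and 3212 FPKM in the GV libraries and at 10.3 and 6.12 FPKM in the 2-cell libraries. Mt1, which encodes a metal-binding metallothionein, went the other way, from 1.33 and 3.85 to 94.5 and 147 FPKM. These values come from the compared columns themselves and are a description.

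A fully grown GV oocyte is nearly silent in transcription and lives on RNA stored during its growth. Meiotic maturation and fertilization bring on the removal of much of this maternal RNA, in part by shortening of poly(A) tails, and the mouse embryo begins major transcription from its own genome at the 2-cell stage. A comparison that spans both events records their sum for each gene: RNA that was lost, RNA that was kept and RNA that was newly made.

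Mt1 and Mt2, neighbouring genes for the main metallothioneins, were 2 of the 12 genes with the largest rise, and metal response elements in their promoters bind the zinc-sensing factor MTF1. Their promoter windows in RefSeq, from 250 bases before to 50 bases after the start of the gene, are shown because the pair rose together. They lie on build GRCm38.p6 at chr8:94178839-94179138 (Mt1, plus strand) and chr8:94172368-94172667 (Mt2, plus strand), and capitals mark matches to the core letters TGCACNC or TGCGCNC on either strand.
Mt1: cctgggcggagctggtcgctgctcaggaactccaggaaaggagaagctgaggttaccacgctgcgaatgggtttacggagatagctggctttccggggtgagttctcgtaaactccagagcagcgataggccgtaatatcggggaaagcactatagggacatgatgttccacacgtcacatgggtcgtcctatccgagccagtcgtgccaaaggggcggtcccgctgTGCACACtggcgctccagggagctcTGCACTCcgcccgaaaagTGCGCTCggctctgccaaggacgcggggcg
Mt2: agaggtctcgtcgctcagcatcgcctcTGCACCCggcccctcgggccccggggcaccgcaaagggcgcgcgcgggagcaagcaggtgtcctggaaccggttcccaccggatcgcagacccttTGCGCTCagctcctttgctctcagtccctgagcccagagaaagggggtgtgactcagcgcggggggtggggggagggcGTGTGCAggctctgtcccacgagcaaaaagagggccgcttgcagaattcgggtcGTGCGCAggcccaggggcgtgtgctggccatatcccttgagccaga
The Mt1 window held 3 matches and the Mt2 window 4. Among all 32851 windows of this length in the table, 25.7% held at least 1 match, 1.97% at least 3 and 0.517% at least 4. The letters CG occurred 24 times in each Mt window and 7 times in the median window. On both scales described below, windows of genes called higher, which include Mt1 and Mt2, had shares of 33.3%, 4.26% and 2.13%. For windows of genes called lower on both they were 34.5%, 3.37% and 0.643%. A match describes letters and is not evidence of binding in these embryos.

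The 2 stages differed widely in summed FPKM and in the format of their values in the deposited table. Summed FPKM came to 578280 and 598500 in the GV libraries and to 47993 and 54186 in the 2-cell libraries, or 8.68% of the GV mean. No value was below 1 FPKM, the floor of the table, and 957 and 900 genes sat at the floor in GV oocytes against 5562 and 5121 in 2-cell embryos. Of the values above the floor in the 2-cell libraries, 99.9% carried more than 6 significant digits, and 0% did in the GV libraries. ERCC spike-in RNA had been added to the lysis buffer per the labels' protocols, and 0 of the rows analysed carried an ERCC name. Whether a column had been multiplied by a factor, and on what basis, is not given in the sources used here. Whether the deposited scale is a spike-in scale was not tested. Because FPKM hold no counts of reads, depth is unknown. Each result was therefore read on 2 scales: as deposited, and centred, where each library was rescaled to the same median over the 5282 genes above the floor in all 4 columns (by 0.979 and 1.02 in GV and by 9.50 and 8.16 in 2-cell libraries) and every value under the highest rescaled floor, 9.50, was raised to it. A centred difference says how a gene moved relative to the median of those genes.

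On the deposited scale nearly the whole transcriptome was lower at the 2-cell stage, while centring left relative rises and relative falls. As deposited, limma called 352 genes higher (3.12% of 11298 tested) and 9471 lower (83.8%) at a Benjamini-Hochberg adjusted p under 0.05, and the median log2 difference over all genes was -1.85. Over the 5282 genes above the floor in all 4 columns, the GV mean was 7.56 times the 2-cell mean at the median. After centring, 2312 genes were called higher (20.5%) and 2755 lower (24.4%), with a median of 0 by construction. Rises made up 3.58% of the calls as deposited and 45.6% after centring. That share depended on the scaling: for deposited values it was 52.6% after quantile normalization and 62.6% with median-ratio size factors. For centred values it was 34.6% when genes averaging under 5 FPKM were left out, 37.0% with median-ratio factors, 68.9% without the common floor and 69.9% when centring rested on genes of at least 50 FPKM in GV oocytes.

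**Figure D1:**
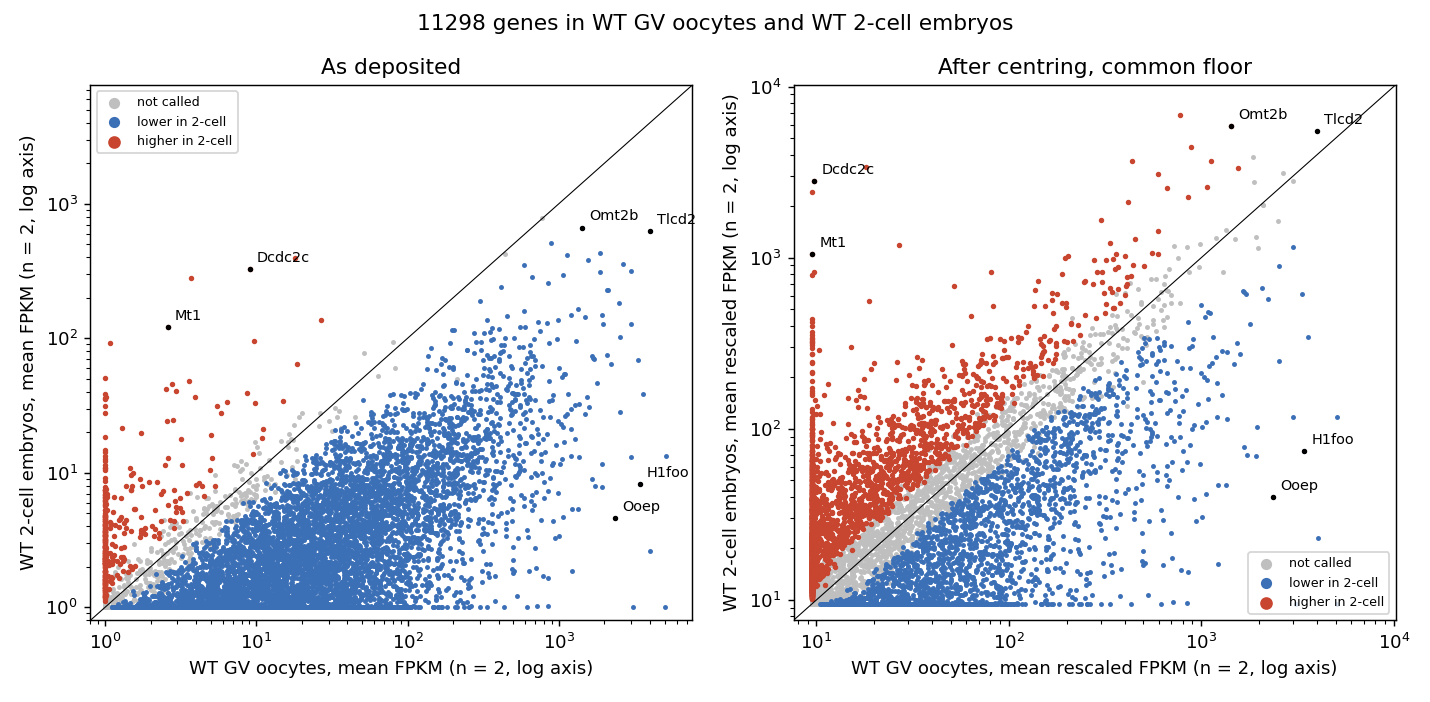
Mean FPKM of each of the 11298 genes in WT GV oocytes (horizontal, log axis, n = 2) against WT 2-cell embryos (vertical, log axis, n = 2), as deposited on the left and after centring with the common floor on the right; the line marks equal values and colours mark limma's calls. Most points lie below the line as deposited, where 9471 genes were called lower, and on both sides of it after centring, where 2312 were called higher and 2755 lower.

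For some genes the direction was the same on both scales. Those called higher on both scales numbered 345 (3.05%), and those called lower on both numbered 2755 (24.4%). A further 1692 genes were called lower as deposited and higher after centring, 5024 were lower as deposited and not called after centring, and 275 were higher after centring alone. Among the 345 shared rises, 203 were at the floor in both GV libraries, so their fold has no fixed size, and 104 were above the floor in all 4 columns. In 344 of the 345, both 2-cell values exceeded both GV values on both scales. Among all 11298 genes, 400 had both 2-cell values above both GV values as deposited. Among the 2755 shared falls, all had GV values above both 2-cell values on both scales, 861 were at the floor in both 2-cell libraries and 1643 were above it in all 4 columns. The calls rest on the same 4 columns, so the separation in both sets follows largely from the choice and nothing is read from it.

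The largest rises belonged to metallothioneins, a homeobox gene, housekeeping enzymes and several predicted genes. Dcdc2c, a gene with a doublecortin domain, measured 8.37 and 9.71 FPKM in the GV libraries and 223 and 427 FPKM in the 2-cell libraries. Its 2-cell values were both far above its GV values, with a log2 difference of 4.95 ± 0.70 (SE) as deposited (limma adjusted p = 9.1e-05) and 7.99 ± 0.62 after centring (1.8e-06). The gene 2310039L15Rik rose from 15.6 and 20.6 to 270 and 516 FPKM, by 4.31 ± 0.70 as deposited and 7.44 ± 0.63 after centring. Gm7102 rose from 2.33 and 5.04 to 191 and 373 FPKM. These 3 genes kept nearly fixed proportions: the ratio of Dcdc2c to 2310039L15Rik lay between 0.765 and 0.828 in the 4 WT and KO 2-cell libraries, and that of Gm7102 to 2310039L15Rik between 0.644 and 0.723. Whether they share reads was not tested, and their separate values are uncertain for that reason.

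Mt1 rose from 1.33 and 3.85 to 94.5 and 147 FPKM, a log2 difference of 5.15 ± 0.66 as deposited (adjusted p = 4.7e-05) and 6.63 ± 0.58 after centring. Mt2 was at 1 and 1.15 FPKM in GV oocytes and at 71.0 and 113 FPKM in 2-cell embryos. Both genes were low in both oocyte libraries and high in both embryo libraries, and both were at the floor in the 2 WT 1-cell libraries. Abt1, an activator of basal transcription, went from 9.65 and 9.63 to 74.6 and 115 FPKM, by 3.14 ± 0.46 as deposited and 6.26 ± 0.42 after centring. Gcsh, the H protein of the glycine cleavage system, went from 2.99 and 4.23 to 42.8 and 53.2 FPKM. Prps1, which makes the phosphoribosyl donor for nucleotide synthesis, went from 2.89 and 2.98 to 29.7 and 51.7 FPKM. For these 3 genes, as for all the largest rises named, 2-cell values above both GV values were a condition of the choice. Obox3, an oocyte and embryo homeobox gene, rose from 1.72 and 3.31 to 38.9 and 44.2 FPKM.

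The predicted gene Gm11517 was at the floor in both GV libraries and at 41.7 and 58.9 FPKM in the 2-cell libraries, and Gm11544 went from 3.07 and 2.47 to 38.8 and 52.6 FPKM. D17Ertd648e rose from 18.7 and 34.9 to 112 and 162 FPKM. Its deposited difference of 2.35 ± 0.67 (adjusted p = 0.0079) was the least secure of the 12 and lost its call without GV replicate 1 (adjusted p = 0.0849) or without 2-cell replicate 2 (0.0735). For the 8 of these 12 genes with both GV values under the common floor, the centred difference is measured against that floor.

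**Figure D2:**
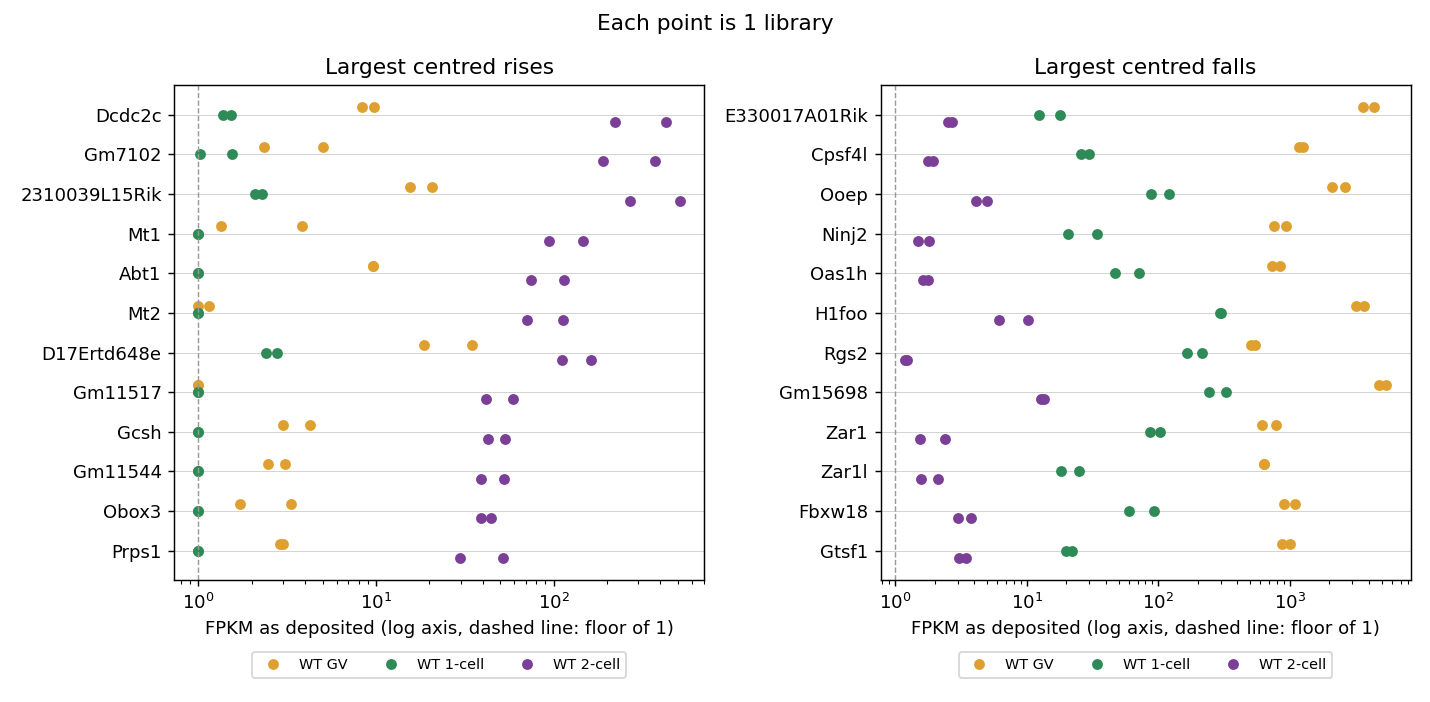
FPKM as deposited (log axis) of the 12 genes with the largest centred rise (left) and the 12 with the largest centred fall among genes above the floor in all 4 columns (right); each point is 1 WT library and the dashed line is the floor of 1 FPKM. The 2-cell points of Dcdc2c, at 223 and 427, lie right of all other points of that gene, and those of E330017A01Rik, at 2.69 and 2.53, lie left of them.

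The 12 largest falls above the floor included Ooep, H1foo, Zar1, Zar1l and Gtsf1, RNAs with known roles in the oocyte. E330017A01Rik fell from 3618 and 4399 FPKM in the GV libraries to 2.69 and 2.53 FPKM in the 2-cell libraries, a log2 difference of -10.11 ± 0.23 as deposited (adjusted p = 1.3e-08) and -7.38 ± 0.28 after centring (5.4e-08). Ooep, a member of the subcortical maternal complex that embryos need beyond the first cleavages, fell from 2082 and 2621 to 4.10 and 5.04 FPKM, with log2 differences of -8.72 ± 0.22 as deposited and -5.83 ± 0.25 after centring. H1foo fell from 3654 and 3212 to 10.3 and 6.12 FPKM, with differences of -8.58 ± 0.28 and -5.59 ± 0.30. Both GV values of each gene were far above both of its 2-cell values.

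Zar1 and Zar1l, which encode RNA-binding proteins of the oocyte, fell from 793 and 616 to 2.39 and 1.54 FPKM and from 637 and 634 to 1.56 and 2.13 FPKM. Gtsf1, a factor of the piRNA pathway, fell from 870 and 1007 to 3.44 and 3.05 FPKM. Rgs2, a regulator of G-protein signalling, fell from 508 and 548 to 1.23 and 1.18 FPKM, with differences of -7.91 ± 0.16 as deposited and -5.51 ± 0.16 after centring. Gm15698 fell from 4749 and 5441 to 12.9 and 13.6 FPKM. The remaining 4 genes of this group were Cpsf4l, related to a subunit of the cleavage and polyadenylation machinery, Ninj2, a ninjurin adhesion gene, Oas1h, of the oligoadenylate synthetase family, and the F-box gene Fbxw18. Their centred log2 differences ranged from -6.15 for Cpsf4l to -5.03 for Fbxw18. Oas1h and Fbxw18 belong to gene families with close copies, so their values are uncertain where reads could be split.

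The most abundant RNAs were largely different at the 2 stages. The 10 genes with the highest GV mean held 6.14% and 6.63% of the summed FPKM of the GV libraries and 1.87% and 1.67% of that of the 2-cell libraries. The 10 genes with the highest 2-cell mean held 9.69% and 9.79% of the 2-cell sums, against 2.49% and 2.51% in GV oocytes. Each list was chosen by the mean of its own stage, which largely fixes the direction of these shares, and nothing is read from it. Only Tlcd2, a gene for a membrane protein with a TLC domain, was in both top 10 lists, and 33 genes were in both top 100 lists. Tlcd2 measured 4085 and 3881 FPKM in GV oocytes and 589 and 665 FPKM in 2-cell embryos. It was lower as deposited (-2.67 ± 0.30) and was not called after centring (0.47 ± 0.30, adjusted p = 0.29), although centring on genes of at least 50 FPKM gave a called rise (1.31, adjusted p = 0.0034).

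The other top GV genes were lower on both scales. Gdf9, the oocyte growth factor that acts on granulosa cells, fell from 3254 and 2761 to 14.4 and 11.9 FPKM, with log2 differences of -7.73 ± 0.35 as deposited and -4.69 ± 0.29 after centring. Ldhb, the lactate dehydrogenase subunit of oocytes, fell from 3331 and 3859 to 42.2 and 35.1 FPKM, with differences of -6.51 ± 0.27 and -3.40 ± 0.28. Skp1a, a core subunit of SCF ubiquitin ligases, fell from 3060 and 3570 to 76.0 and 61.1 FPKM. The smallest fall of the group was in Bcl2l10, an anti-apoptotic gene of the Bcl2 family, from 2927 and 3077 to 150 and 107 FPKM. Its centred difference of -1.43 ± 0.31 (adjusted p = 0.0024) lost its call with only the compared libraries in the fit (adjusted p = 0.107) and with centring on genes of at least 50 FPKM (0.117). Rn45s, the ribosomal RNA precursor, stood at 4050 and 6056 FPKM in GV oocytes and at the floor in all 4 WT embryo libraries. Oligo-dT priming reads tailed RNA, and whether the values of Rn45s reflect its RNA level was not tested. Gm813 went from 2768 and 3402 FPKM to the floor in both 2-cell libraries.

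Among the top 2-cell genes, most had already been abundant in the oocyte. Gm20594 was the highest, with 718 and 821 FPKM in GV oocytes and 642 and 923 FPKM in 2-cell embryos, so the groups overlapped as deposited (0.00 ± 0.34) and separated only after centring (3.14 ± 0.36). Lars2, mitochondrial leucyl-tRNA synthetase, also overlapped, with 400 and 475 against 359 and 480 FPKM. Its log2 difference was -0.07 ± 0.39 as deposited and 3.06 ± 0.38 after centring. The direction of both deposited differences turned when 1 library was left out. Dppa3, which protects the maternal genome from demethylation, measured 2439 and 2843 FPKM in GV oocytes and 341 and 373 FPKM in 2-cell embryos. Zbed3, whose protein associates with the subcortical maternal complex, measured 2105 and 1627 FPKM against 564 and 293 FPKM. Both were lower as deposited and not called after centring, although Zbed3 was called higher after centring without 2-cell replicate 2 (1.56, adjusted p = 0.011). With centring on genes of at least 50 FPKM both were called higher, Dppa3 by 1.09 (adjusted p = 0.0029) and Zbed3 by 1.79 (0.0103). Of the 10, 2310039L15Rik alone was called higher as deposited.

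**Figure D3:**
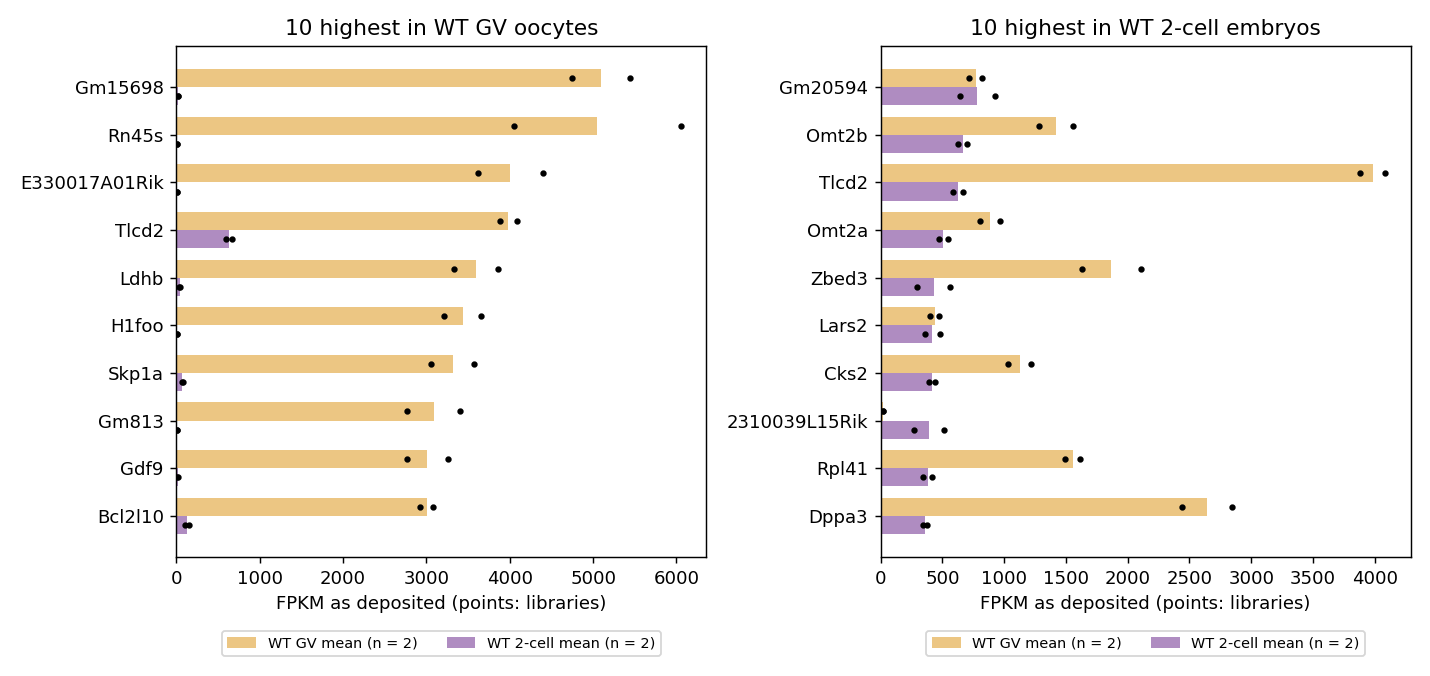
FPKM as deposited of the 10 genes with the highest mean in WT GV oocytes (left) and in WT 2-cell embryos (right); bars are means of 2 libraries, points are the libraries, and both axes start at 0. The 2-cell bars are barely visible on the left except for Tlcd2, at 589 and 665, whereas on the right Gm20594 has bars of similar length at both stages.

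The 8 genes with the highest GV level among those lower as deposited and higher after centring were abundant RNAs that had fallen less than the median. Omt2b and Omt2a, a pair of oocyte maturation genes, measured 1285 and 1558 FPKM and 805 and 967 FPKM in GV oocytes, and 629 and 702 FPKM and 469 and 543 FPKM in 2-cell embryos. Every 2-cell value lay below its GV values. The deposited log2 differences were -1.09 ± 0.23 and -0.80 ± 0.23, and the centred differences were 2.05 ± 0.27 and 2.33 ± 0.26. The deposited call of Omt2a was lost without 2-cell replicate 1 (adjusted p = 0.0635) or GV replicate 2 (0.0663). The 2 genes are close copies whose reads could be split. Cks2, a small subunit that binds cyclin-dependent kinases, went from 1030 and 1219 to 444 and 388 FPKM, with a centred difference of 1.70 ± 0.27. Tcl1b1, of the Tcl1 oncogene family, C86187, Rps27l, a ribosomal protein S27-like gene, and 2310003F16Rik had centred differences of 1.28, 1.41, 1.93 and 0.82.

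With only the 4 compared libraries in the fit, the centred calls of Omt2b (adjusted p = 0.0928), Cks2 (0.0675), Tcl1b1 (0.0761), 2310003F16Rik (0.0914) and Rpl41 (0.168) were lost. Rpl41, a ribosomal protein gene with 1493 and 1618 FPKM in GV oocytes and 343 and 419 FPKM in 2-cell embryos, had the least secure centred call, at 1.10 ± 0.38 (adjusted p = 0.036). It was not called when any 1 of the 4 libraries was left out (adjusted p from 0.0705 to 0.15). The centred call of 2310003F16Rik was lost without GV replicate 1 (0.139) or 2-cell replicate 2 (0.103).

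Some oocyte RNAs reached the floor. Mos, the kinase that holds the egg in meiotic arrest, measured 609 and 621 FPKM in GV oocytes and was at the floor in both 2-cell libraries. Gja4, the gap-junction protein connexin 37 that couples oocyte and granulosa cells, was at 449 and 416 FPKM, and Bub1b, a spindle checkpoint kinase, at 288 and 224 FPKM before reaching the floor. Astl, the egg protease ovastacin that cleaves the zona pellucida at fertilization, went from 264 and 211 FPKM to the floor, as did Hist1h2bc, a core histone gene, from 287 and 314 FPKM and 2410004A20Rik from 342 and 331 FPKM. For genes at the floor in both 2-cell libraries the size of the fall cannot be given. In all, 4151 genes were above the floor in both GV libraries and at the floor in both 2-cell libraries, and 226 showed the reverse.

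A gene close to the common floor in the oocyte has little room to fall before it reaches that floor, so the share of genes called lower depends in part on the GV level by construction. The shares by level are given for reference and nothing is read from their trend. Among genes above the common floor in GV oocytes, split into 5 equal bins by GV level, the median centred log2 difference went from -0.06 in the lowest bin to -0.35, -0.66, -0.90 and -1.25 in the highest. The share called lower after centring was 20.4%, 44.2%, 52.8%, 59.5% and 66.0% in bins that began at 9.50, 15.3, 25.4, 45.5 and 104.7 FPKM. The share called higher went from 30.9% to 9.96%. Across 5 equal bins of transcript length over the same genes, where a length was known, from the shortest to the longest and with median GV levels from 69.3 down to 21.2 FPKM, the median centred difference was -0.68, -0.59, -0.45, -0.24 and -0.07. Median length was 2247 bases for shared rises, 2665 for shared falls, 3635 for genes lower as deposited and higher after centring, and 3076 for all genes. The part of level and length in the results for the gene lists was not tested. The counts of each list are read against the shares over all genes, which were 3.12% higher and 83.8% lower as deposited and 20.5% higher, 24.4% lower and 55.2% not called after centring, and a share near these is not a result about the list. Those shares are not matched for GV level, so bin shares are added for several lists. Where a GV value lay under the common floor, the centred difference is measured against that floor.

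Genes of oocyte identity and maternal effect had the lowest centred median of the 26 lists. All 46 measured genes of the 49 listed were called lower as deposited. After centring 35 were called lower (76.1%, against 24.4% of all genes), 4 higher and 7 not called, with a median of -2.92. Their median GV level was 725 FPKM, in the bin where 66.0% of genes were called lower. Ooep and H1foo fell most among the members above the floor, and the 4 rises included Omt2a and Omt2b.

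Of 38 meiotic cell cycle genes, 37 were called lower as deposited. After centring 20 were lower (52.6%, against 24.4% of all genes), 7 higher (18.4%, against 20.5%) and 11 not called, with a median of -0.66. The median GV level was 60.4 FPKM, in the bin where 59.5% of genes were called lower. Mos and Bub1b reached the floor. Cdc25c, a phosphatase that activates the cyclin B kinase, measured 9.78 and 7.20 FPKM in GV oocytes and 6.92 and 6.57 FPKM in 2-cell embryos and was 2.52 ± 0.13 higher after centring. Sycp3, of the synaptonemal complex, measured 19.5 and 27.8 against 11.3 and 12.9 FPKM.

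Of 47 deadenylation and decay genes, 46 were lower as deposited, and after centring 13 were higher (27.7%) and 15 lower (31.9%), with a median of 0.00. Over all genes these shares were 20.5% and 24.4%. Lsm3 and Lsm5, subunits of the Lsm ring that binds RNA ends, fell from 472 and 522 to 5.50 and 6.76 FPKM and from 380 and 418 to 7.62 and 9.20 FPKM. Exosc2, an RNA exosome subunit, and Dcp2, the decapping enzyme, measured 16.4 and 18.5 against 6.70 and 10.1 FPKM and 8.02 and 6.94 against 3.78 and 5.08 FPKM, with centred rises of 1.99 ± 0.22 and 1.91 ± 0.15. The GV values of Dcp2 lay under the common floor, so its rise and SE depend on that floor. In the list of translational control and cytoplasmic polyadenylation, 34 of 39 genes were lower as deposited, and after centring 15 were higher (38.5%) and 12 lower (30.8%), against 20.5% and 24.4% of all genes. Pabpn1l fell from 220 and 204 FPKM to 1.18 and 1 FPKM, and Cpeb1, which directs cytoplasmic polyadenylation in oocytes, from 249 and 214 to 2.17 and 2.12 FPKM. Pabpn1, the nuclear poly(A)-binding protein, measured 21.1 and 18.9 FPKM in GV oocytes and 26.5 and 28.7 FPKM in 2-cell embryos, with a centred rise of 3.54 ± 0.24. Pabpc1, the cytoplasmic poly(A)-binding protein, went from 7.24 and 11.1 to 8.08 and 11.96 FPKM, overlapping as deposited, with a centred rise of 2.94 ± 0.23.

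Of the 26 lists, the one named for transient genes of the 2-cell stage was the only one with more deposited rises than falls. It also held RNAs abundant in the oocyte, so its name does not describe every member. Its summed level was 5061 and 5553 FPKM in the GV libraries and 443 and 427 FPKM in the 2-cell libraries. Of 33 measured, 16 were called higher and 11 lower as deposited, against 3.12% and 83.8% of all genes, and the 16 were higher on both scales. After centring 20 were higher (60.6%, against 20.5%) and 7 lower (21.2%, against 24.4%), with a median of 0.59 and a median GV level of 1.04 FPKM. The median turned to -0.42 when genes averaging under 5 FPKM were left out. Obox6, a homeobox gene, was at the floor in both GV libraries and at 26.2 and 36.2 FPKM in 2-cell embryos, beside Obox3. The falls included the homeobox genes Obox2, from 1628 and 1829 to 8.07 and 7.89 FPKM, and Obox1, from 953 and 1071 to 11.9 and 11.2 FPKM. These 4 genes belong to 1 family with close copies.

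Pluripotency and lineage regulators had 26 measured members, of which 4 were higher and 14 lower as deposited, and 11 higher (42.3%) and 6 lower (23.1%) after centring, against 20.5% and 24.4% of all genes. Dppa4, a chromatin factor of pluripotent cells, overlapped between stages as deposited, with 16.0 and 17.7 FPKM in GV oocytes against 16.8 and 18.8 FPKM in 2-cell embryos, and was at the floor in both WT 1-cell libraries. Its centred rise was 3.14 ± 0.21. Id2, an inhibitor of basic helix-loop-helix factors, rose from 2.53 and 3.73 to 5.99 and 7.04 FPKM. Dppa5a fell from 1236 and 1476 to 25.9 and 38.6 FPKM, and Sall4, a zinc-finger factor, from 131 and 153 to 3.21 and 5.99 FPKM. The list's centred median of 0.21 turned to -0.14 under the same filter.

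Of 30 metallothioneins and redox enzymes, 3 were higher and 24 lower as deposited, and after centring 10 were higher (33.3%) and 9 lower (30%), against 20.5% and 24.4% of all genes. Mt1 and Mt2 led the rises. Glrx, glutaredoxin, fell from 773 and 917 to 1.03 and 1 FPKM, and Txnip, an inhibitor of thioredoxin, from 553 and 444 to 1.84 and 1.75 FPKM. The list therefore held both the largest centred rise and the largest centred fall of any gene in the 26 lists.

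After centring, 22 of 63 genes for RNA polymerases and general factors were higher (34.9%) and 17 lower (27%). Of 68 spliceosome genes 27 were higher (39.7%) and 17 lower (25%), and of 91 nucleolar and ribosome biogenesis genes 34 were higher (37.4%) and 22 lower (24.2%). Over all genes 20.5% were higher and 24.4% lower, so the falls were near the background. As deposited, 59, 65 and 80 genes of these lists were lower (93.7%, 95.6% and 87.9%, against 83.8% of all genes). Polr2h and Polr2f, shared subunits of the polymerases, measured 21.1 and 30.7 against 17.6 and 26.9 FPKM, and 179 and 211 against 97.5 and 131 FPKM. Gtf2h2, of TFIIH, fell from 81.5 and 96.3 to 1 and 1.62 FPKM, and Polr2d from 726 and 809 to 10.8 and 16.5 FPKM. Cdc5l, a splicing factor, rose from 1.51 and 1.98 to 7.15 and 8.88 FPKM and was called on both scales. Snrpg, an Sm protein, went from 565 and 619 to 331 and 375 FPKM, with a centred rise of 2.39 ± 0.26. Plrg1 and Sf3a3, also of the spliceosome, had centred differences of -2.101 ± 0.22 and -1.99 ± 0.20.

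Polr1c, a subunit of RNA polymerases I and III, was higher on both scales, from 8.81 and 10.3 to 13.3 and 14.3 FPKM, by 3.48 ± 0.17 after centring. Taf1d, of the RNA polymerase I selectivity factor, measured 35.01 and 35.7 against 25.4 and 32.3 FPKM and was 2.80 ± 0.24 higher after centring. Noc4l, a small-subunit assembly factor, fell from 207 and 210 to 2.31 and 2.08 FPKM, and Bms1, another assembly factor, from 81.9 and 69.3 FPKM to the floor.

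Of 83 cytoplasmic ribosomal protein genes, 82 were lower as deposited. After centring 10 were higher (12%, against 20.5% of all genes), 25 lower (30.1%, against 24.4%) and 48 not called (57.8%, near the 55.2% of all genes). The median GV level was 335 FPKM, in the bin where 66.0% of genes were called lower. The median transcript length was 1059 bases. The median centred difference was -0.41. The median turned to 0.17 after quantile normalization and to 0.42 with centring on genes of at least 50 FPKM. Rpl9 measured 35.2 and 54.3 FPKM in GV oocytes, 1.13 and 1.55 FPKM in 1-cell embryos and 21.5 and 30.1 FPKM in 2-cell embryos. Rpl5 fell from 628 and 677 to 8.19 and 10.5 FPKM, and Rpl37 from 693 and 761 to 13.4 and 20.1 FPKM. Ribosomal protein genes have many processed copies, so reads could be split among them.

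Of 52 translation factors, 49 were lower as deposited, and after centring 11 were higher (21.2%, near the 20.5% of all genes) and 19 lower (36.5%, against 24.4%). In the bin of their median GV level, 61.65 FPKM, 59.5% of genes were called lower. Their median of -0.31 turned to 0.43 with centring on genes of at least 50 FPKM. Etf1, the release factor, went from 17.4 and 17.7 to 8.93 and 10.4 FPKM, a centred rise of 2.21 ± 0.16. Eif4ebp1, an inhibitor of cap-dependent initiation, measured 1.45 and 4.08 against 4.10 and 4.25 FPKM. Eif2b3 fell from 72.2 and 74.3 FPKM to the floor, and Eif1ax, an initiation factor encoded on the X chromosome, from 495 and 579 to 6.41 and 13.3 FPKM.

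Most genes of oxidative phosphorylation and of mitochondrial ribosomes were called lower after centring. Among 78 nuclear-encoded genes of oxidative phosphorylation, 77 were lower as deposited, and after centring 55 were lower (70.5%, against 24.4% of all genes) and 4 higher (5.13%, against 20.5%), with a median of -1.34. Among 76 mitochondrial ribosomal protein genes all were lower as deposited, and after centring 51 were lower (67.1%) and 10 higher (13.2%), with a median of -1.07. Of 39 glycolysis and citric acid cycle enzymes, 21 were lower (53.8%) and 7 higher (17.9%) after centring. The median GV levels of these lists were 177, 67.0 and 32.7 FPKM. In the bins that hold these levels, 66.0%, 59.5% and 52.8% of genes were called lower. The oxidative phosphorylation genes had a median length of 1135 bases.

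Ndufb4, of respiratory complex I, fell from 461 and 534 to 1.75 and 2.70 FPKM, with a centred difference of -4.62 ± 0.25. Sdhd, of complex II, fell from 213 and 231 to 1.26 and 1.33 FPKM. Cox8a, of cytochrome oxidase, was the leading exception, with 389 and 442 FPKM in GV oocytes and 244 and 238 FPKM in 2-cell embryos, a centred rise of 2.35 ± 0.21, and Cyc1, cytochrome c1, was lower as deposited, from 17.01 and 13.5 to 3.05 and 3.32 FPKM, and 0.85 ± 0.13 higher after centring. Mrps36 and Mrpl14 fell from 460 and 527 to 1.86 and 1.98 FPKM and from 253 and 242 to 1.16 and 1.02 FPKM. Mrps26, at 20.3 and 20.4 against 11.4 and 9.64 FPKM, and Mrpl20, at 21.9 and 18.1 against 7.47 and 10.3 FPKM, rose after centring. Pgam1, of glycolysis, measured 9.93 and 9.33 against 5.89 and 7.997 FPKM, while Ldha rose from 1.75 and 1.72 to 3.90 and 3.60 FPKM on both scales. Dld, a subunit shared by the mitochondrial dehydrogenase complexes, fell from 160 and 150 to 1 and 1.30 FPKM.

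Of 42 proteasome subunits, 40 were lower as deposited, and after centring 32 were lower (76.2%, against 24.4% of all genes and 66.0% in the bin of highest GV level) and 5 higher (11.9%, against 20.5%), with a median of -1.48 and a median GV level of 148 FPKM. Psma7, of the catalytic core, fell from 657 and 675 to 4.23 and 6.40 FPKM, and Psmd10 from 96.2 and 95.4 FPKM to the floor. Psme4 and Psme3, which encode alternative activators of the core, measured 33.2 and 37.6 against 11.2 and 11.6 FPKM and 77.1 and 65.6 against 16.1 and 18.5 FPKM, with centred rises of 1.48 ± 0.21 and 1.09 ± 0.24. Among 41 chaperones, 37 were lower as deposited, and after centring 20 were lower (48.8%) and 5 higher (12.2%) at a median GV level of 113 FPKM, against 24.4% and 20.5% of all genes. The bin with that GV level had 66.0% called lower. The chaperone median of -0.40 turned to 0.12 with centring on genes of at least 50 FPKM. Hspb1, a small heat-shock protein, overlapped between stages as deposited, at 11.8 and 9.30 against 10.7 and 11.004 FPKM. Cct6a and Cct5, subunits of 1 chaperonin, went opposite ways after centring: Cct6a measured 8.05 and 7.99 against 6.05 and 6.24 FPKM (2.39 ± 0.14), and Cct5 fell from 379 and 346 to 4.49 and 3.91 FPKM (-3.26 ± 0.25). Both GV values of Cct6a lay under the common floor, so its rise and SE depend on that floor. Pfdn1, of prefoldin, fell from 178 and 191 to 1.91 and 1.55 FPKM.

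Of 64 chromatin genes, 53 were lower as deposited (82.8%, near the 83.8% of all genes), and after centring 21 were higher (32.8%, against 20.5%) and 19 lower (29.7%, against 24.4%). Dnmt1, the maintenance DNA methyltransferase, fell from 219 and 222 to 1.13 and 1.13 FPKM, and its partner Uhrf1 from 168 and 146 to 2.02 and 1.91 FPKM. Cbx3, a heterochromatin protein, measured 15.7 and 22.8 against 21.7 and 29.8 FPKM, with a centred rise of 3.50 ± 0.31. Hdac1, a histone deacetylase, measured 7.32 and 7.17 against 6.09 and 6.58 FPKM and was 2.43 ± 0.10 higher after centring. Its GV values lay under the common floor, so that size and SE depend on the floor. Of 36 measured histone genes, 25 were at the floor in both 2-cell libraries, 24 were lower as deposited (66.7%, against 83.8% of all genes) and 27 were not called after centring (75%, against 55.2%). H1foo and Hist1h2bc led the falls. H2afz, the variant H2A.Z, went from 65.4 and 94.5 to 87.9 and 99.4 FPKM, overlapping as deposited, with a centred rise of 3.37 ± 0.33, and H2afv from 25.6 and 27.2 to 12.5 and 13.5 FPKM. Most replication-dependent histone transcripts lack a poly(A) tail, and oligo-dT priming does not read them well.

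DNA replication genes were lower in 51 of 52 cases as deposited, and after centring 24 were lower (46.2%, against 24.4% of all genes) and 10 higher (19.2%, near 20.5%), with a median of -0.56. In the bin of their median GV level, 36.7 FPKM, 52.8% of genes were called lower. Ccne1, cyclin E1, was the gene among them that rose on both scales, from 5.92 and 4.08 to 18.7 and 19.3 FPKM. Cdk2, its kinase, went from 10.8 and 12.1 to 5.82 and 4.20 FPKM, a centred rise of 1.84 ± 0.24. Gins1, of the replicative helicase, fell from 84.2 and 96.5 to 1 and 1.23 FPKM, and Rpa1, which binds single-stranded DNA, from 94.4 and 72.0 to 1.22 and 1.25 FPKM. Of 53 nuclear pore and transport genes, 49 were lower as deposited, and after centring 20 were higher (37.7%) and 16 lower (30.2%), against 20.5% and 24.4% of all genes. Kpna7, the importin alpha of oocytes, fell from 310 and 278 to 3.96 and 2.24 FPKM, while Kpna1, another importin alpha, went from the floor to 5.90 and 5.43 FPKM. Pom121 measured 12.2 and 10.9 against 5.88 and 6.32 FPKM, and Nup93 fell from 63.3 and 45.3 to 1 and 1.33 FPKM.

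Targets of p53 and regulators of apoptosis had 30 measured members, of which 4 were higher and 21 lower as deposited, and 13 higher (43.3%, against 20.5% of all genes) and 4 lower (13.3%, against 24.4%) after centring, at a median GV level of 4.06 FPKM. Cdkn1a, the p21 inhibitor of cyclin-dependent kinases, went from the floor in both GV libraries to 2.99 and 4.20 FPKM. Mcl1, an anti-apoptotic gene, overlapped between stages as deposited, at 3.59 and 3.76 against 3.09 and 3.80 FPKM. Birc5, survivin, fell from 1019 and 1154 to 50.1 and 59.1 FPKM, with a centred difference of -1.18 ± 0.18.

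Common reference genes were not uniform. Of 23 measured, 21 were lower as deposited, and after centring 8 were higher (34.8%, against 20.5% of all genes), 6 lower (26.1%, near 24.4%) and 9 not called, with a median of 0.14. Ubb, a polyubiquitin gene, fell from 1165 and 1395 to 32.8 and 31.2 FPKM, Sdha from 68.4 and 45.5 to 1.95 and 1.69 FPKM, and Tfrc, the transferrin receptor, rose from 3.08 and 3.83 to 4.16 and 9.88 FPKM.

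**Figure D4:**
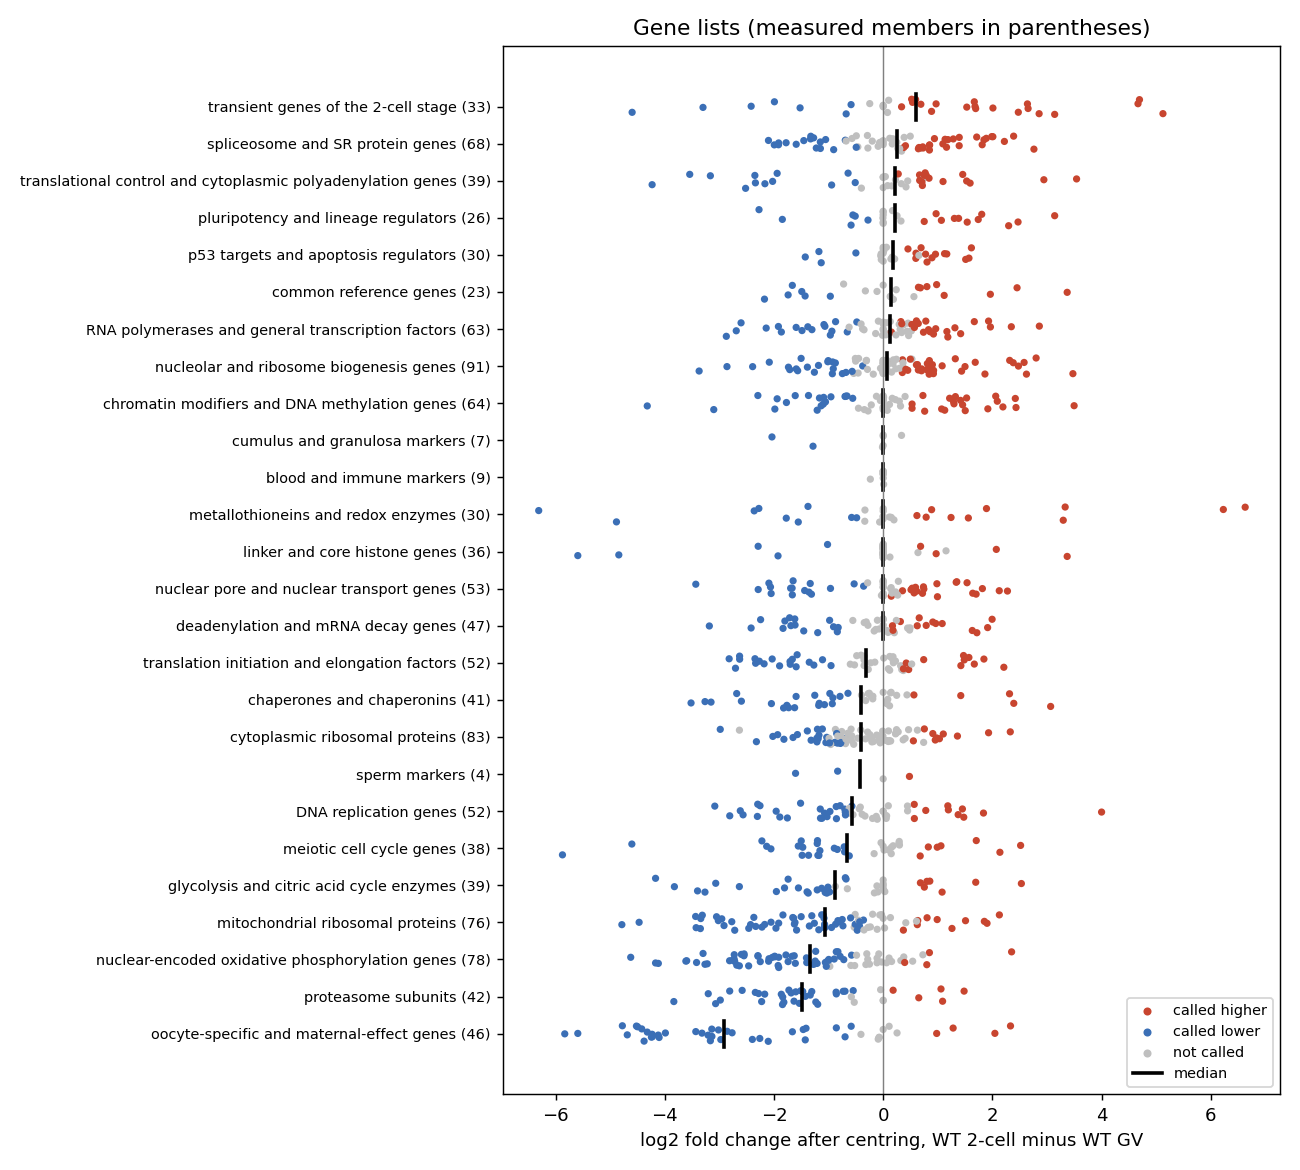
Centred log2 difference between WT 2-cell embryos and WT GV oocytes for each measured member of the 26 gene lists, sorted by median; points are genes, coloured by limma's call over all genes, and black bars are list medians. The oocyte and maternal-effect genes lie lowest, with a median of -2.92, and the transient 2-cell genes highest, with 0.59.

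Few markers of other cells were in the table, and most of those reached the floor in both 2-cell libraries. Of 22 cumulus and granulosa markers 7 were in the table, with a summed level of 77.6 and 84.2 FPKM in GV oocytes and 7.15 and 8.06 FPKM in 2-cell embryos, where 5 were at the floor in both libraries. Most of the GV sum came from Esr2, an estrogen receptor at 43.9 and 45.5 FPKM, and Cyp19a1, aromatase, at 25.4 and 23.8 FPKM, which fell to 1.14 and 1.16 FPKM and to the floor. Of 17 sperm markers 4 were in the table, with sums of 96.6 and 101 FPKM in GV oocytes and 9.02 and 8.86 FPKM in 2-cell embryos. They were Ldhc and Prm2, which fell on both scales, Odf2, and 1 gene not called after centring. The centred fall of Prm2 became -0.095 and lost its call with centring on genes of at least 50 FPKM. The centred rise of Odf2, 0.48, lost its call without 2-cell replicate 1 (0.37) or GV replicate 2 (0.33). Of 20 blood and immune markers 9 were in the table, with sums of 24.95 and 23.5 FPKM against 9.18 and 9.36 FPKM and centred differences between -0.24 and 0.01. The part of other cells in the results was not tested. In such bulk libraries fewer cells of a type and less RNA per cell cannot be told apart.

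Many of the falls, and few of the rises, were already called in WT 1-cell embryos. On the centred scale, 1901 genes were called higher (16.8%) and 1960 lower (17.3%) in WT 1-cell embryos than in WT GV oocytes. Of the 2755 genes lower on both scales at the 2-cell stage, 1512 were already lower at the 1-cell stage, 914 were not called and 329 were higher there. Of the 345 genes higher on both scales, 338 were not called at the 1-cell stage, 6 were higher and 1 was lower. H1foo stood at 295 and 302 FPKM in the 1-cell libraries, between its GV and 2-cell values, and Ooep at 120 and 88.6 FPKM. Rgs2, at 215 and 166 FPKM in 1-cell embryos, kept more of its oocyte level there than E330017A01Rik, at 17.98 and 12.5 FPKM. Because these contrasts share the GV libraries, their calls are not independent.

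For some genes the net change differed between genotypes, which was tested as the difference between the WT and the KO change on the deposited scale. Pabpn1l itself measured 220 and 204 FPKM in WT GV oocytes and 7.23 and 4.98 FPKM in KO GV oocytes. The change was above that of the KO for 886 genes (7.84%) and below it for 500 (4.43%) by limma, or 63.9% above among the calls. Of the 345 shared rises 256 were above and 2 below, and of the 2755 shared falls 134 were above and 261 below. Both sets were chosen on WT values that enter this difference, so the choice fixes part of these counts and nothing is read from them. On the centred scale with the highest floor of all 12 columns, 11.4, the calls were 1153 above and 1375 below (45.6% above), so the balance depended on the scaling. With the common floor of the 4 WT columns they were 1426 and 5782 (19.8% above), but the rescaled floors of the KO 2-cell columns exceed that floor. Leaving out WT 2-cell replicate 2 gave 563 above and 299 below, leaving out KO 2-cell replicate 2 gave 566 and 315, and leaving out WT 2-cell replicate 1 gave 297 below.

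Several genes were higher in WT than in KO 2-cell embryos. Gm11517 was at 41.7 and 58.9 FPKM in WT and at 1.63 and 1 FPKM in KO 2-cell libraries, and at the floor in the KO GV libraries. Cd63, a tetraspanin, was at the floor in the WT GV and WT 1-cell libraries and at 29.4 and 47.9 FPKM in WT 2-cell embryos, against 1 and 1.58 FPKM in the KO, whose GV libraries had 1 and 1.19 FPKM. Alppl2, an alkaline phosphatase, reached 16.6 and 23.2 FPKM in WT 2-cell embryos and went from 3.52 and 2.40 FPKM to the floor in the KO. Cdk2ap1, a binding partner of Cdk2, rose from 8.19 and 9.24 to 31.6 and 46.9 FPKM in WT and went from 8.46 and 11.8 to 2.93 and 1.45 FPKM in the KO, a difference of 3.86 ± 0.44 (adjusted p = 0.00072). Nme2, a nucleoside diphosphate kinase, rose from 19.8 and 17.5 to 58.2 and 69.8 FPKM in WT and went from 21.01 and 15.1 to 3.95 and 2.81 FPKM in the KO. Gm4850 reached 37.9 and 35.5 FPKM in WT against 3.42 and 1 FPKM in the KO, where the GV libraries had 1.34 and 1.81 FPKM. The WT and KO 2-cell libraries did not overlap for any of these 6 genes. They were chosen for the largest called differences, so nothing is read from that separation. For Mt1 the KO 2-cell libraries differed widely, at 41.1 and 6.61 FPKM, and the difference in change of 2.80 did not pass the test (adjusted p = 0.095).

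Other genes fell further in measured FPKM in WT than in KO embryos. Rn45s, at the floor in WT 2-cell embryos, measured 1603 and 1325 FPKM in the KO. Whether its floor values reflect the level of this ribosomal RNA precursor was not tested. Tm2d1 fell from 326 and 374 to 2.26 and 1.96 FPKM in WT but to 40.0 and 61.4 FPKM in the KO, from 369 and 325 FPKM in KO oocytes. Plac1l fell from 1251 and 1420 to 5.17 and 5.53 FPKM in WT and to 92.7 and 85.9 FPKM in the KO, a difference of -3.69 ± 0.32 (adjusted p = 0.00016). Lsm5 measured 7.62 and 9.20 FPKM in WT and 158 and 187 FPKM in KO 2-cell embryos, and Hist1h2bc the floor in WT and 24.4 and 33.6 FPKM in the KO. In each of these 5 genes both KO 2-cell values lay above both WT values, which the same choice largely fixes. The difference for Pabpn1l, -5.13, follows from its low level in KO oocytes.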

How the data were processed

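Polyadenylated RNA was measured by Smart-seq2 in 12 libraries of 10 oocytes or embryos, 2 in each of 6 groups. The authors deposited FPKM values in 1 table, made with TopHat2 2.1.1, Cufflinks 2.2.1 and build mm9 per the submitters' processing notes. The scale of the columns and the floor of 1 FPKM are described with the results. One incomplete row was left out. Oligo-dT priming reads tailed RNA, so loss of RNA and of its tail cannot be told apart.

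All 12 libraries entered 1 linear model of log2(FPKM + 1) and shared its estimate of the spread, with a mean-variance trend (limma 3.58.1 under R 4.3.3), and two-sided p-values were adjusted by Benjamini-Hochberg over 11298 genes. The pseudocount understates changes of low genes. Centring and the common floor were applied before the log. The fit was run on simulated data in which WT 2-cell means equalled GV means except for known changes, with the same noise for every gene. That simulation lacked the difference in level between the stages, so it does not show how the calls behave in these data. The same 2 scales were used for 26 gene lists (1139 of 1310 listed genes measured), which share some genes and received no test of their own. Members and lists were chosen with earlier results of these data known. Named were Mt1 and H1foo, the 12 largest centred rises and falls, the 10 most abundant genes per stage, 8 genes lower as deposited but higher after centring, 8 genes lost to the floor, the leading 2 rises and falls of each list, and 6 genes per direction of the WT and KO difference. The 12 rises and 12 falls had to be called on both scales. The rises also needed both 2-cell values above both GV values, and the falls all 4 WT columns above the floor. Promoters came from RefSeq (GRCm38.p6), read with Python 3.11.15. Transcript length is that of the longest annotated transcript, matched by symbol for 98.8% of genes. Alternatives were other pseudocounts (0 and 5), scalings, filters and fits, a replicate block, and leaving out each library.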

Additional observations from a re-analysis of the deposited data

Results flagged for a closer look

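For 55 of the genes named above, the net change from GV oocyte to 2-cell embryo differed between WT and KO libraries by limma's test of the difference (adjusted p under 0.05, all 12 libraries, deposited scale). Values below are the WT change minus the KO change in log2(FPKM + 1). Where a group lies at the floor the value has no fixed size. In 33 genes the WT change was above that of the KO. Among genes that rose most, the values were 4.46 for Gm11517, 4.15 for Cd63, 4.01 for Gm4850, 3.93 for Alppl2, 3.86 for Cdk2ap1, 3.84 for Nme2, 3.69 for Obox3, 3.41 for Gcsh, 3.39 for Gm11544, 3.13 for Abt1, 2.58 for Obox6 and 2.40 for Prps1.

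Among genes of transcription, translation and RNA binding, they were 3.08 for Polr1c, 1.91 for Taf1d, 1.96 for Polr2h, 1.27 for Polr2f, 2.49 for Rpl41, 2.19 for Rpl9, 2.14 for Mrps26, 2.00 for Mrpl20, 1.70 for Pabpc1 and 1.28 for Pabpn1. For chromatin, cell cycle and other genes they were 2.67 for Dppa4, 2.65 for H2afv, 1.91 for Hdac1, 2.27 for Ccne1, 1.99 for Cdc25c, 2.23 for Hspb1, 1.97 for Cct6a, 1.74 for Kpna1, 1.19 for Cdkn1a, 1.11 for Cyc1 and 0.74 for Mcl1.

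In 22 genes the WT change was below that of the KO. These were Rn45s (-9.87), Pabpn1l (-5.13), Tm2d1 (-4.04), Lsm5 (-3.81), Hist1h2bc (-3.79), Plac1l (-3.69), Gm15698 (-3.40), E330017A01Rik (-3.06), Dld (-2.70), Gm813 (-2.29), Obox1 (-2.12), Skp1a (-2.01), Obox2 (-1.91), Psma7 (-1.47), Dppa5a (-1.46), Mrpl14 (-1.46), Psmd10 (-1.25), Pfdn1 (-1.21), Fbxw18 (-1.20), Ninj2 (-1.20), Glrx (-1.06) and Rgs2 (-0.96). The value of Pabpn1l follows from its low level in KO oocytes. That of Rn45s rests on WT 2-cell libraries at the floor, and whether it reflects a difference in RNA level was not tested.

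Of the 55 calls, 35 held without each of the 8 libraries in turn and 34 held under all 16 alternatives. On the centred scale with the highest floor of all 12 columns 53 held, and Pabpn1 and Polr2h did not. The calls lost when some library was left out were those of Abt1, Ccne1, Cyc1, Dppa5a, Fbxw18, Glrx, Hspb1, Mcl1, Mrpl14, Ninj2, Pabpc1, Pabpn1, Polr2f, Polr2h, Prps1, Psma7, Psmd10, Rgs2, Rpl41 and Rpl9. The call of Pfdn1 was lost with a pseudocount of 5.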

How the results depend on the processing

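The labels do not say that a replicate number marks a shared source. Same-numbered libraries correlated in their deviations at 0.116 for WT GV and WT 2-cell, 0.269 for WT and KO GV, -0.249 for WT and KO 2-cell and -0.086 for KO GV and KO 2-cell, so the numbers were not taken as pairs. With a replicate block the calls were 348 higher and 9459 lower as deposited, 2288 and 2731 after centring, and 785 and 387 for the WT minus KO change, where the block ended the calls of Ninj2, Rgs2, Fbxw18, Glrx, Polr2h, Cyc1 and Mcl1 (adjusted p from 0.0504 to 0.0619). Leaving out each library in turn gave 314 to 444 higher and 9114 to 9449 lower as deposited, 1941 to 2482 and 2406 to 2579 after centring, and 563 to 1013 and 297 to 655 for the WT minus KO change.

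The deposited calls became 73 higher and 5865 lower when genes averaging under 5 FPKM were left out, 4156 and 3748 after quantile normalization, and 5651 and 3370 with median-ratio factors. The centred rises became 1516 with the 5 FPKM filter, 4156 after quantile normalization and 6298 without the common floor, and the centred falls 1412 with centring on genes of at least 50 FPKM. The WT minus KO calls became 312 below with a pseudocount of 5, 1426 above and 5782 below on the centred scale with the common floor, and 1375 below with the highest floor of all 12 columns. Centring on genes of at least 50 FPKM and the highest floor of all 12 columns were chosen after seeing the data.

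Negative deposited differences that turned positive after quantile normalization were 0.013 for Tlcd2, 1.87 for Omt2b, 2.26 for Omt2a, 0.76 for Zbed3, 3.20 for Lars2, 1.68 for Cks2, 1.17 for Rpl41, 0.09 for Dppa3, 1.34 for Tcl1b1, 1.47 for C86187, 1.97 for Rps27l and 1.32 for 2310003F16Rik. With median-ratio factors they were 0.20 for Tlcd2, 1.78 for Omt2b, 2.06 for Omt2a, 0.68 for Zbed3, 2.79 for Lars2, 1.44 for Cks2, 0.83 for Rpl41, 1.01 for Tcl1b1, 1.14 for C86187, 1.66 for Rps27l and 0.55 for 2310003F16Rik, and the centred value of Dppa3 was -0.016. With either scaling the values of Tlcd2 and Zbed3 were not called, nor was that of Dppa3 after quantile normalization. The deposited difference of Lars2 had not been called. Such scalings remove the difference in level between the stages by construction. Leaving out each library in turn, the deposited difference of Gm20594 ranged from -0.26 (without 2-cell replicate 2; -0.09 without GV replicate 1) to 0.26, and that of Lars2 from -0.28 to 0.14 (without 2-cell replicate 1; 0.05 without GV replicate 2). List medians that turned were -0.42 for transient 2-cell genes and -0.14 for pluripotency regulators with the 5 FPKM filter, 0.17 for cytoplasmic ribosomal proteins after quantile normalization, and 0.42 for these, 0.43 for translation factors and 0.12 for chaperones with centring on genes of at least 50 FPKM. Of 3829 values recomputed for genes and lists, 3557 kept direction and call, 154 lost a call, 11 gained one, 73 list medians moved and 34 turned. Depth is unknown, which limits what values near the floor can show.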

Other observations

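Some related genes moved in opposite directions after centring, in pairs chosen after their values were seen. Ldhb, the lactate dehydrogenase subunit that favours lactate use, fell by 3.40 ± 0.28 on the centred log2 scale while Ldha rose by 1.70 ± 0.23, although Ldhb remained the higher of the pair at the 2-cell stage (42.2 and 35.1 against 3.90 and 3.60 FPKM). The GV values of Ldha lay under the common floor, so its centred rise and SE depend on that floor. Among importin alphas, Kpna7 fell by 3.43 ± 0.36 and Kpna1 went from the floor to 5.90 and 5.43 FPKM, above the 3.96 and 2.24 FPKM of Kpna7. Of Pabpn1l and Pabpn1, Pabpn1l was the higher in oocytes (220 and 204 against 21.1 and 18.9 FPKM). The order was reversed in 2-cell embryos (1.18 and 1 against 26.5 and 28.7 FPKM). Obox1 and Obox2 fell and Obox3 and Obox6 rose.

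The deposited and centred scales answer different questions, and no measurement used here fixes the true ratio of total RNA between the stages. Culture, stage and any factor applied to the 2-cell columns cannot be told apart. Only 2 libraries stand behind each group.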
